A study of Danio rerio with 7 samples.

Results

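The genes described here code for splicing factors and heterogeneous nuclear ribonucleoproteins (hnRNPs) of the zebrafish. They were chosen by the start of their gene name (snrp, sf3a and sf3b, sf1, srsf, hnrnp, u2af, prpf, lsm with a digit from 1 to 8, sart, ddx5, ddx23, ddx39, ddx46, rbm with a digit, rbfox, esrp, mbnl, ptbp, celf, khdrbs, qki and nova). Of 181 genes with such a name, 162 were among the 17570 genes of the matrix, and the other 19 were not analysed here. By role, 53 members belong to the core of the spliceosome, 17 are SR proteins, 24 are hnRNPs, 22 are regulators known from splicing in particular tissues and 30 are other RNA-binding motif (RBM) proteins. A further 16 members share the start of the name but mostly act elsewhere, among them nucleolar DEAD-box helicases and LSm-domain proteins of histone mRNA processing.

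The spliceosome removes introns from pre-mRNA. It is built from small nuclear ribonucleoproteins (snRNPs), in which a ring of Sm or LSm proteins and a few further proteins sit on a short nuclear RNA, and from protein complexes that join and leave at each step. SR proteins bind exons through RNA recognition motifs and carry a tail rich in arginine and serine, and they mostly promote the use of nearby splice sites, whereas hnRNPs coat the transcript and often repress them. Regulators such as the RBFOX, MBNL, PTBP, CELF, KHDRBS and QKI proteins set exon choice in muscle, brain or other tissues.

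The libraries came from PAC2 cells, a permanent wild-type cell line from zebrafish embryos that was grown without any treatment, so the groups share genotype, strain of cells and culture conditions and differ in the time after seeding. The day 8 group (exponential growth phase) holds 4 libraries, replicates 1 to 4, and the day 14 group (stationary growth phase) holds 3 libraries, replicates 1, 2 and 4. Each replicate number stands for another passage of the same line with its own starting day, so the replicates are cultures of a single cell line. Medium was exchanged on the day before the day 8 harvest, and time in that medium, cell density and growth phase cannot be told apart. Poly-A RNA of whole cultures was sequenced and summed per gene, so splicing itself was not measured, and fewer cells of a type and less RNA per cell cannot be told apart.

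The libraries held 11252559 to 33414743 estimated counts. Levels are given as CPM, the count of a gene for every 1000000 counts of the library size scaled by edgeR's TMM method. Differences are log2 values of day 14 minus day 8 with their standard error (SE), and a gene was called at an adjusted p below 0.05 in edgeR's quasi-likelihood test, adjusted over all 17570 genes. As CPM take no account of transcript length, levels are compared between libraries and never between genes. Of 7 fibroblast and mesenchyme markers looked for, 5 were found by name in the matrix (col1a1a, col1a2, col5a1, pdgfra and twist1a). Their summed level was 2780 to 5239 CPM on day 8 and 5158 to 6842 CPM on day 14, and 3 of the 5 rose. For 6 epithelial names looked for, 4 genes were found. They summed to 2573 to 2992 CPM on day 8 and 2860 to 2993 CPM on day 14, nearly all of it krt8. Of the 4, 2 fell, cdh1 and krt4 (log2 differences of -1.26 and -0.59). For 6 muscle names, 3 genes were found: myod1, myog and ckma summed to 16.6 to 23.5 CPM and 26.9 to 35.0 CPM, and ckma rose. For 6 neuronal names, 2 genes were found: elavl4 and tubb5 summed to 50.3 to 73.0 CPM and 47.8 to 64.3 CPM with 0 called by edgeR. The part of these markers in the results below was not tested.

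More splicing factor genes fell than rose in the stationary phase. Of the 162 members, 38 (23.5%) were called lower on day 14, against 13.3% of all genes tested, and 6 (3.70%) were called higher, against 12.0% of all genes. The median log2 difference of the members was -0.30, with 123 members below zero and 39 above, while the median of all genes was 0.00. The differences were small: the called lower members had a median log2 difference of -0.63, and for 6 of the 44 called members the log2 difference exceeded 1 in size. Every day 14 library lay below every day 8 library in 55 members (17.7% of all genes did so) and above in 12 members (17.1% of all genes). Among the called members the groups did not overlap in 37 of the 38 lower and in 6 of the 6 higher ones, and mbnl3 was the exception. Calls and overlap rest on the same values, so this count lends the calls no further support. Without the 16 members that share only the start of the name, 31 of 146 members (21.2%) were lower and 6 (4.11%) higher. With 1 library left out, 4 to 37 of the 146 were lower, beside 7.75% to 14.5% of all genes. These 146 still hold the 30 other RBM proteins, among them the germ cell gene rbm46, which was called higher.

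**Figure D1:**
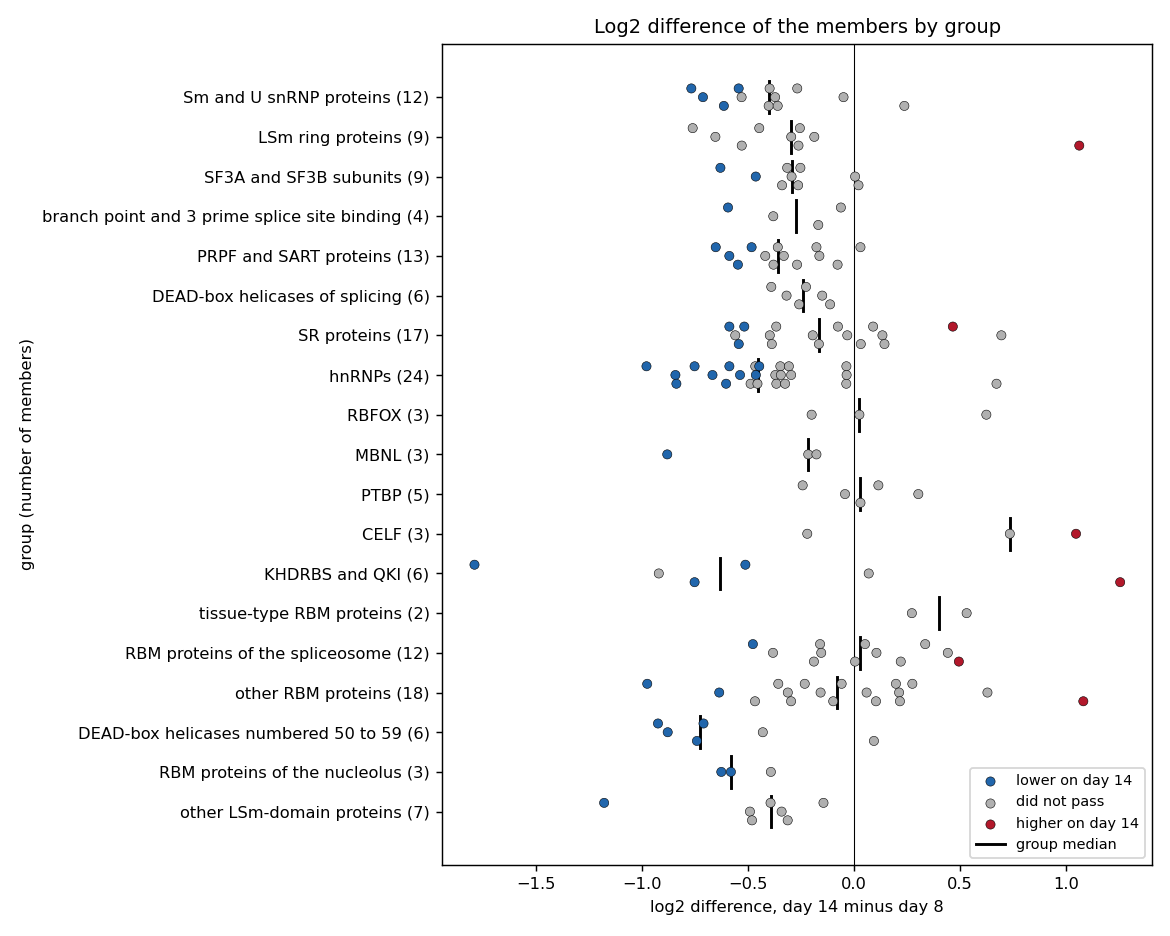
Log2 difference (day 14 minus day 8, horizontal axis) of each of the 162 members, grouped by role, with blue points for members called lower, red points for members called higher, grey points for the rest and a black bar for the group median. Below zero lie 23 of 24 hnRNPs, 5 of 6 DEAD-box helicases numbered 50 to 59 and 48 of 53 core spliceosome genes. The tissue-type regulators spread to both sides, from -1.79 to 1.26.

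The counts depended on the fit and on single libraries. With the replicate number as a block, 63 members were lower (18.9% of all genes) and 7 higher (17.7%). Replicate 3 has no day 14 library, so its day 8 library adds nothing to the difference in this fit. This fit lost 0 of the 44 calls and gained 26, 1 of them higher. Without TMM scaling, 66 members were lower (18.5% of all genes) and 1 was higher (6.93%), and the median of all genes moved to -0.17, so that all differences below are relative to the TMM scale. Leaving out replicate 2 of day 14 gave 18 lower members (11.1%, against 8.18% of all genes) and leaving out replicate 2 of day 8 gave 20 (12.3%, against 9.75%). Without replicate 4 of day 14, 9 members were lower (5.56%), which is below the 7.75% of all genes, so the excess of lower calls over all genes was lost in that omission, while the median of the members was -0.24. Of these 9, 5 were among the 16 members that share only the start of the name. The core spliceosome genes had 11 of 53 (20.8%, against 13.3% of all genes) lower with all libraries and 0 without that library. Of the 44 called members, 9 passed in every left-out library and under every other setting that tested them. These were khdrbs3, lsm11, hnrnpa0b, khdrbs1a, qki (ENSDARG00000010018), ddx51, ddx52, ddx54 and ddx56. Each of the other calls was lost under at least 1 of these settings or omissions. The qki gene was below the stricter of the minimum levels tried, so the fit at that level did not test it.

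Of the 12 genes for Sm proteins and proteins of the U1 and U2 snRNPs, 4 (33.3%, against 13.3% of all genes) were lower. The median log2 difference of the group was -0.40. Among them, snrpg (an Sm ring protein) reached 123, 144, 254 and 192 CPM in replicates 1 to 4 of day 8 and 91.7, 107 and 116 CPM in replicates 1, 2 and 4 of day 14. All day 14 libraries were below all day 8 libraries, but day 8 itself spread by a factor of about 2 with replicate 3 highest. The log2 difference was -0.77 (SE 0.23, adjusted p = 0.0272). The Sm protein gene snrpf, with 9.04 to 13.6 CPM on day 8 and 5.91 to 6.64 CPM on day 14, fell by 0.71 on the log2 scale (SE 0.20, adjusted p = 0.0198), and snrpc, which codes for the U1-C protein of the U1 snRNP, fell by 0.61 (SE 0.17, adjusted p = 0.0189). The fourth was snrpb2, the U2-B″ protein of the U2 snRNP, at -0.54 (SE 0.17, adjusted p = 0.0329). No value of snrpf is a whole number, so reads of snrpf were divided between genes by the authors' estimate.

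Other Sm genes did not pass. The Sm gene snrpd2 had 428, 533, 912 and 967 CPM on day 8 and 567, 732 and 759 CPM on day 14. The day 14 libraries lay inside the wide day 8 range, and the log2 difference was -0.05 (SE 0.27, adjusted p = 0.919). Likewise snrpb had 430 to 874 CPM on day 8 and 387 to 475 CPM on day 14 (log2 difference -0.53, adjusted p = 0.105), and snrpd1 had -0.40 (adjusted p = 0.169). The U1-A gene snrpa was the 1 member of the group above zero, at 164 to 216 CPM on day 8 and 218 to 246 CPM on day 14, without overlap but short of the threshold (log2 difference 0.24, adjusted p = 0.272).

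The LSm ring genes, whose products bind U6 snRNA in the nucleus or take part in mRNA decay in the cytoplasm, had a median log2 difference of -0.30 over 9 members. Of these, edgeR called 0 lower (13.3% of all genes) and 1 higher (11.1%, against 12.0% of all genes). At an unadjusted p below 0.05, 2 were lower, and DESeq2 called 1 lower, limma 0 and limma-voom 0. The higher gene was lsm2 (ENSDARG00000103066), which rose from 1.24, 0.813, 0.870 and 0.981 CPM to 1.71, 1.92 and 2.45 CPM, a log2 difference of 1.06 (SE 0.32, adjusted p = 0.0286). The other gene of this symbol (ENSDARG00000070867) had 11.8 to 27.1 CPM on day 8 and 10.6 to 22.3 CPM on day 14 (log2 difference -0.19, adjusted p = 0.725). None of the 7 values of either gene is whole, which means that reads were divided between genes by the authors' estimate, so the values of both copies are uncertain.

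Genes of the Sm and U snRNP group and of the LSm group varied in the same way among the day 8 cultures. Relative to each gene's day 8 mean, the median of the 12 Sm and U snRNP genes was -0.36, -0.17, 0.40 and 0.13 on the log2 scale in replicates 1 to 4 of day 8, and that of the 9 LSm genes was -0.48, -0.24, 0.44 and 0.40. On day 14 the same medians were -0.40, -0.28 and -0.51, and -0.52, -0.13 and -0.32. Replicate 1 of day 8 was therefore within the day 14 range for both groups. Of the 21 genes of both groups, 15 overlapped between day 8 and day 14, beside 11458 of all 17570 genes. Within the pairs of equal replicate number, the medians were 0.00, -0.13 and -0.63 for Sm and U snRNP genes and -0.05, 0.08 and -0.50 for LSm genes in replicates 1, 2 and 4. The within-pair difference was largest in replicate 4, and leaving out replicate 4 of day 14 left 0 of the 21 genes called lower (7.75% of all genes). In contrast, leaving out replicate 1 of day 8 gave 9 (42.9%, against 14.5% of all genes). As an example, lsm6 differed by 0.35, 0.19 and -0.36 within replicates 1, 2 and 4. The hnRNP medians did not share this spread, at 0.04, 0.08, -0.06 and -0.16 on day 8 and -0.34, -0.38 and -0.62 on day 14. What sets the day 8 libraries apart was not tested.

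**Figure D2:**
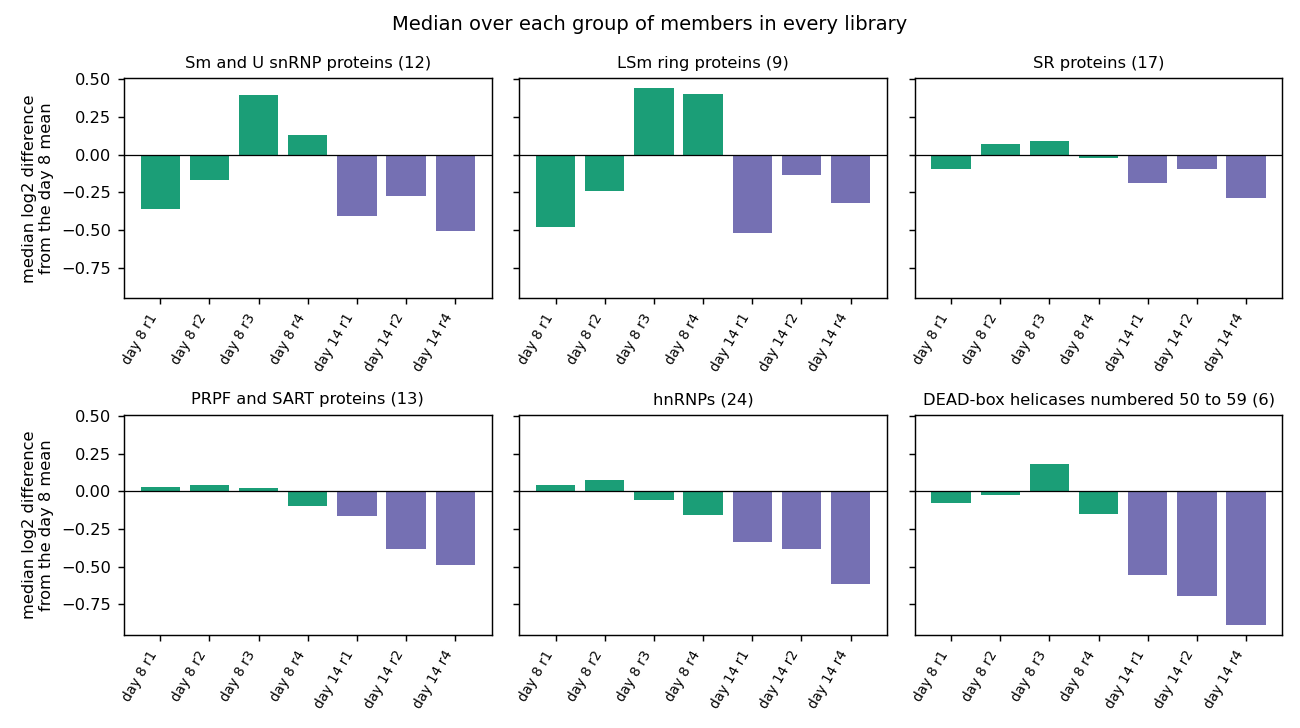
Median over the members of 6 groups of the log2 difference from each gene's day 8 mean (vertical axis), in each of the 4 day 8 libraries (green) and 3 day 14 libraries (violet), with replicate numbers as r1 to r4. Medians of the Sm and U snRNP group and of the LSm group are below zero in replicates 1 and 2 of day 8 and above it in replicates 3 and 4. The hnRNP and helicase medians are lower in each day 14 library than in any day 8 library.

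The SF3A and SF3B subunits, the part of the U2 snRNP that holds the branch point, had 2 of 9 members lower (22.2%, against 13.3% of all genes). The gene sf3b4 had 59.3, 64.2, 70.5 and 49.3 CPM on day 8 and 46.8, 42.7 and 28.3 CPM on day 14. The groups stayed apart by a small margin between replicate 4 of day 8 and replicate 1 of day 14, and the log2 difference was -0.63 (SE 0.19, adjusted p = 0.0322). The other was sf3a1 at -0.46 (SE 0.16, adjusted p = 0.0464). The largest subunit gene, sf3b1, had 138 to 168 CPM on day 8 and 143 to 166 CPM on day 14 (log2 difference 0.02, SE 0.15, adjusted p = 0.934).

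Of the 4 genes for branch point and 3′ splice site recognition, u2af1, whose product reads the AG at the end of the intron, was lower. Its level was 85.7, 92.8, 124 and 105 CPM on day 8 and 67.0, 73.4 and 61.7 CPM on day 14, without overlap (log2 difference -0.59, SE 0.16, adjusted p = 0.0181). The partner genes for the polypyrimidine tract, both named u2af2 (ENSDARG00000011740 and ENSDARG00000012505), had log2 differences of -0.17 and -0.06 with adjusted p of 0.450 and 0.799. The branch point binder sf1 had -0.38 (adjusted p = 0.123) and was called lower with the replicate block (log2 difference -0.44, adjusted p = 0.00748).

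Most of the PRPF and SART genes code for proteins of the U4/U6.U5 tri-snRNP, the U1 snRNP or the catalytic steps. Of these 13 members, 4 (30.8%, against 13.3% of all genes) were lower, and the median was -0.36. The ubiquitin ligase gene prpf19 had 131, 161, 179 and 140 CPM on day 8 and 102, 99.2 and 89.9 CPM on day 14. The groups did not overlap, and the gap between them was wider than the day 14 spread but narrower than the day 8 spread. The log2 difference was -0.65 (SE 0.16, adjusted p = 0.00918), although leaving out replicate 4 of day 14 raised the adjusted p to 0.0508. The U1-associated gene prpf39 fell by 0.48 on the log2 scale (adjusted p = 0.0437), and sart3, which helps U4 and U6 to pair again after each round, fell by 0.55 (adjusted p = 0.0306).

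The central U5 protein gene prpf8 had 350, 313, 217 and 267 CPM on day 8 and 265, 202 and 194 CPM on day 14. The groups overlapped because replicate 3 of day 8 was low, and the log2 difference of -0.38 did not pass (SE 0.19, adjusted p = 0.172). Within replicates 1, 2 and 4 it differed by -0.40, -0.63 and -0.46, and with the replicate block it was called lower (log2 difference -0.50, adjusted p = 0.00313). The block fit takes nothing for this difference from replicate 3 of day 8, the low library. Of the 6 helicase genes of splicing or its coupled mRNA export, edgeR called 0, with a median of -0.24. At an unadjusted p below 0.05, 1 was lower, DESeq2 called 1, and limma and limma-voom called 0. That gene was ddx5, at 549 to 638 CPM on day 8 and 399 to 499 CPM on day 14 (log2 difference -0.39, adjusted p = 0.102, and 0.0211 with the block).

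Of 17 SR protein genes, 3 (17.6%, against 13.3% of all genes) were lower and 1 (5.88%, against 12.0%) was higher, which is near or below the share of all genes, and the median log2 difference was -0.17. The gene srsf6 (ENSDARG00000013729) had 117, 137, 134 and 119 CPM on day 8 and 90.4, 91.2 and 71.8 CPM on day 14, a log2 difference of -0.59 (SE 0.15, adjusted p = 0.0133). The groups did not overlap, whereas those of the other srsf6 gene (ENSDARG00000016783) did (log2 difference -0.08, adjusted p = 0.762). The genes srsf7a and srsf3 (ENSDARG00000059360), which code for the shuttling SR proteins that also serve mRNA export, fell by 0.54 and 0.52 on the log2 scale (SE 0.16 each, adjusted p = 0.0240 and 0.0338). The one higher gene, srsf2b, rose from 24.3, 26.0, 21.5 and 27.6 CPM to 32.3, 36.7 and 34.2 CPM (log2 difference 0.47, SE 0.15, adjusted p = 0.0347), and its call was lost when any of 5 libraries was left out and without TMM scaling (adjusted p = 0.241). With the replicate block, srsf1 (ENSDARG00000057691), srsf11 and srsf2a were lower as well, which gave 6 of 17, beside 18.9% of all genes in that fit. With 1 library left out, edgeR called 0 to 5 SR genes lower. The fewest were without replicate 4 of day 14 (7.75% of all genes) and the most without replicate 1 of day 8 (14.5% of all genes).

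Among hnRNP genes 10 of 24 (41.7%) were lower, against 13.3% of all genes, and the median log2 difference was -0.45. edgeR called 0 of them higher, 0 had an unadjusted p below 0.05 in that direction, and DESeq2, limma and limma-voom called 0 higher. In 23 of the 24 genes the difference was below zero, and in 16 every day 14 library was below every day 8 library (17.7% of all genes did so). The exception in sign was hnrnph3, at 1.14 to 4.48 CPM on day 8 and 4.02 to 5.75 CPM on day 14 (log2 difference 0.67, SE 0.36, adjusted p = 0.192). With the replicate block 17 hnRNP genes were lower, beside 18.9% of all genes.

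The 3 largest falls among them were those of A-type hnRNPs, which bind UAG motifs and counteract SR proteins. In hnrnpa0b the level was 313, 365, 299.9 and 295 CPM on day 8 and 206, 150.3 and 129 CPM on day 14. All day 14 libraries were well below day 8, with replicate 1 of day 14 nearest to it, and the log2 difference was -0.98 (SE 0.19, adjusted p = 0.0026), a 1.97-fold lower level. No value of hnrnpa0b or of its copy hnrnpa0a is whole, so the split of reads between genes adds error that was not measured. The gene hnrnpa1a had 202, 204, 156 and 130 CPM on day 8 and 127, 80.9 and 81.6 CPM on day 14. Replicate 4 of day 8 and replicate 1 of day 14 nearly met, and the log2 difference was -0.84 (SE 0.21, adjusted p = 0.0129). Its relative hnrnpa1l2 had 216 to 338 CPM on day 8 and 121 to 201 CPM on day 14 (log2 difference -0.84, SE 0.21, adjusted p = 0.0124).

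Other called hnRNP genes were hnrnpm, at 142 to 212 CPM on day 8 and 95.0 to 125 CPM on day 14 (log2 difference -0.75, SE 0.18, adjusted p = 0.00874), and hnrnpu (ENSDARG00000004735), whose product binds chromatin and RNA, at -0.67 (SE 0.19, adjusted p = 0.0200). The remaining 5 were hnrnph1l, hnrnpdl, hnrnpa0a, hnrnpr and hnrnpl, with log2 differences from -0.60 to -0.45. Both hnrnpab genes were near the threshold. ENSDARG00000099865 had 448 to 592 CPM on day 8 and 345 to 402 CPM on day 14, without overlap (log2 difference -0.47, adjusted p = 0.0576), and ENSDARG00000007960 had -0.45 (adjusted p = 0.0718). The C protein gene hnrnpc, with 55.3 to 73.6 CPM on day 8 and 48.2 to 55.0 CPM on day 14, did not pass (log2 difference -0.32, adjusted p = 0.130). Leaving out replicate 2 of day 8 gave 5 lower hnRNP genes (20.8%, against 9.75% of all genes) and leaving out replicate 2 of day 14 gave 3 (12.5%, against 8.18%). Without replicate 4 of day 14 only hnrnpa0b was lower (4.17%), below the 7.75% of all genes, while the medians over the 7 omissions stayed between -0.51 and -0.33.

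**Figure D3:**
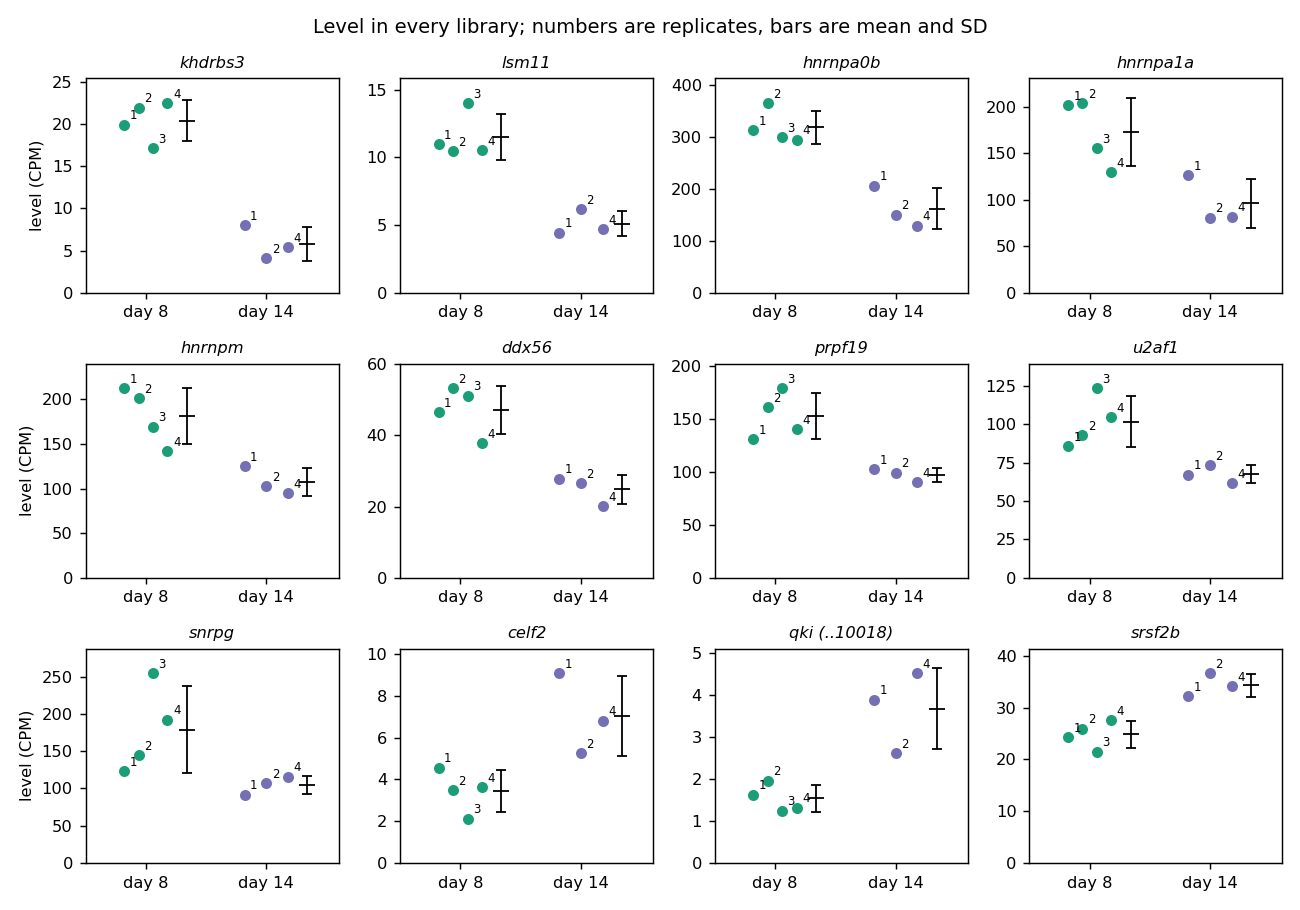
Level in CPM (vertical axis, from zero) of 12 members in each day 8 library (green) and each day 14 library (violet), with the replicate number beside each point and the mean ± SD beside each group. The day 14 points lie below all day 8 points in the 9 genes that fell and above them in celf2, qki (ENSDARG00000010018) and srsf2b.

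Of 22 tissue-type regulators, 4 (18.2%, against 13.3% of all genes) were lower and 2 (9.09%, against 12.0%) were higher, close to the shares of all genes, and the median log2 difference was -0.01. The strongest change of any member was that of khdrbs3, a STAR-family RNA-binding protein known in the mouse from exon choice in neurexin genes of the brain. Its level was 19.9, 21.98, 17.2 and 22.5 CPM on day 8 and 8.03, 4.08 and 5.37 CPM on day 14. The lowest day 8 library had more than 2 times the level of the highest day 14 library, and the log2 difference was -1.79 (SE 0.23, adjusted p = 0.000306), a 3.46-fold lower level. Within replicates 1, 2 and 4 it differed by -1.31, -2.43 and -2.07.

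Both genes for Sam68, the founding protein of that family, were lower too. The first, khdrbs1a, had 818, 882, 767 and 787 CPM on day 8 and 547, 482 and 420 CPM on day 14 (log2 difference -0.75, SE 0.17, adjusted p = 0.00722), and khdrbs1 (ENSDARG00000070475) had 128 to 146 CPM and 90.8 to 103 CPM (log2 difference -0.51, SE 0.14, adjusted p = 0.0180). Neither gene had overlapping groups. The muscleblind gene mbnl3 had 125, 108, 54.0 and 76.4 CPM on day 8 and 59.8, 44.1 and 43.9 CPM on day 14. Replicate 3 of day 8 was below replicate 1 of day 14, so the groups overlapped, but the gene was called (log2 difference -0.88, SE 0.26, adjusted p = 0.0263) and within replicates 1, 2 and 4 it differed by -1.06, -1.29 and -0.80. For mbnl1 and mbnl2 the log2 differences were -0.22 and -0.18 (adjusted p = 0.609 and 0.496), and mbnl1 was called lower with the block (log2 difference -0.44, adjusted p = 0.0312).

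Of 3 quaking genes, edgeR called 1, which rose. Quaking is a STAR-family protein needed for myelin in the mouse and for muscle in the zebrafish. The copy ENSDARG00000010018 had 1.62, 1.96, 1.25 and 1.32 CPM on day 8 and 3.90, 2.62 and 4.52 CPM on day 14, and rose by 1.26 on the log2 scale (SE 0.29, adjusted p = 0.00735). The copy ENSDARG00000002026 had 4.79, 5.06, 2.72 and 3.79 CPM on day 8 and 2.64, 1.11 and 2.66 CPM on day 14. Its groups were separated only narrowly, and the log2 difference of -0.92 did not pass (SE 0.33, adjusted p = 0.0610, and 0.0115 with the block). A further quaking gene, qkia, had 133 to 230 CPM on day 8 and 169 to 210 CPM on day 14 (log2 difference 0.07, adjusted p = 0.828).

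Of the CELF genes, celf2 rose from 4.56, 3.47, 2.12 and 3.62 CPM to 9.08, 5.24 and 6.81 CPM (log2 difference 1.05, SE 0.27, adjusted p = 0.0139). The groups did not overlap, replicate 1 was highest on both days, and leaving out replicate 1 of day 14 ended the call (adjusted p = 0.0782). The log2 difference of celf1 was -0.22 (adjusted p = 0.331) and that of celf3 (ENSDARG00000034668) 0.73 at 0.597 to 1.51 CPM on day 8 and 1.53 to 2.23 CPM on day 14 (adjusted p = 0.169). The 5 PTBP genes, which repress neuronal and muscle exons, and the 3 RBFOX genes, which bind UGCAUG, had 0 calls by edgeR, 0 at an unadjusted p below 0.05 and 0 by DESeq2, limma and limma-voom. The levels of ptbp1 (ENSDARG00000019362) were 93.6 to 138 CPM on day 8 and 108 to 122 CPM on day 14, and those of rbfox2 were 87.5 to 131 CPM and 75.4 to 106 CPM, with log2 differences of -0.04 (SE 0.16) and -0.20 (SE 0.18). A p that misses the threshold does not show that these levels were equal. The epithelial regulators esrp1 and esrp2 and the neuronal regulator nova1 were among the genes not analysed here.

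**Figure D4:**
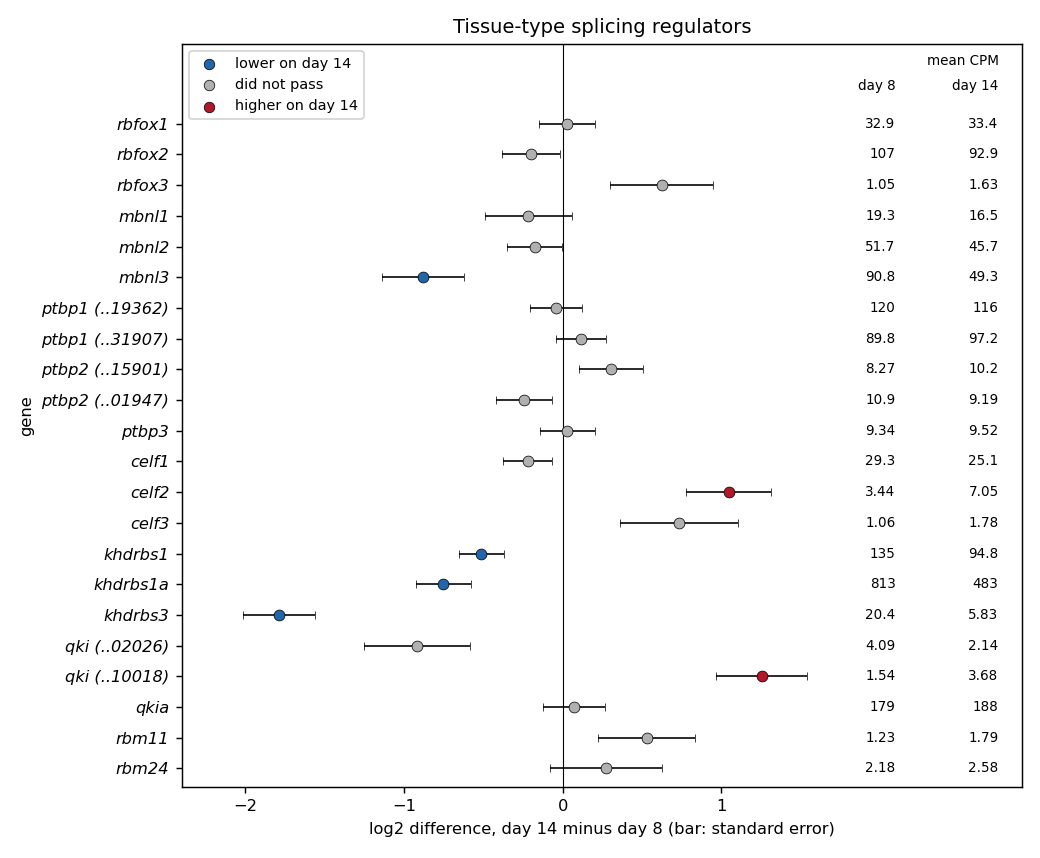
Log2 difference (day 14 minus day 8, horizontal axis) of the 22 tissue-type regulators with the standard error of the fit as bars, blue for genes called lower, red for genes called higher and grey for the rest, and the mean CPM of 4 day 8 and 3 day 14 libraries at the right. The range runs from khdrbs3 at -1.79 to qki (ENSDARG00000010018) at 1.26.

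The 30 RBM genes outside the nucleolar and tissue-type groups had 3 members lower, 2 higher and a median of -0.03, and the shares of 10.0% and 6.67% were below those of all genes in both directions. The genes rbm25 and rbm5 code for proteins that bind the early spliceosome and are known in human cells from exon choice in apoptosis genes. In rbm25 (ENSDARG00000006395) the level was 58.8, 58.2, 52.8 and 47.4 CPM on day 8 and 45.0, 39.9 and 32.0 CPM on day 14 (log2 difference -0.48, SE 0.16, adjusted p = 0.0475), and in rbm5 it was 53.9 to 69.0 CPM and 76.1 to 95.8 CPM (log2 difference 0.49, SE 0.15, adjusted p = 0.0283). Groups did not overlap in either gene, and both calls were lost in more than 1 omission of a library. The genes rbm12ba (log2 difference -0.97, SE 0.25, adjusted p = 0.0149) and rbm14a (-0.64, SE 0.17, adjusted p = 0.0176) were lower. The germ cell gene rbm46, known from meiosis in the mouse, was higher at 0.979 to 1.85 CPM on day 8 and 2.34 to 3.72 CPM on day 14 (log2 difference 1.08, SE 0.31, adjusted p = 0.0215).

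Of the 16 members that share only the start of the name, 7 (43.8%, against 13.3% of all genes) were lower, and the median was -0.49. Among these 16, edgeR called 0 higher, as did DESeq2, limma and limma-voom, with 0 at an unadjusted p below 0.05. The nucleolar helicases ddx56, ddx54, ddx51 and ddx52, which act in ribosome assembly, were all lower, with log2 differences of -0.92, -0.88, -0.74 and -0.71 (adjusted p = 0.00275, 0.00706, 0.00591 and 0.00668). The level of ddx56 was 46.4, 53.2, 51.1 and 37.8 CPM on day 8 and 27.8, 26.6 and 20.1 CPM on day 14, so every day 14 library was below every day 8 library. The nucleolar RNA-binding genes rbm34 and rbm19 fell by 0.63 and 0.58 on the log2 scale (adjusted p = 0.0106 and 0.0196).

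The second strongest fall of any member was that of lsm11, whose product belongs to the U7 snRNP that cuts the 3′ end of replication-dependent histone mRNAs. Its level was 10.97, 10.5, 14.0 and 10.5 CPM on day 8 and 4.44, 6.18 and 4.68 CPM on day 14. The groups were far apart, and the log2 difference was -1.18 (SE 0.20, adjusted p = 0.00148), a 2.26-fold lower level. The lsm10 genes, for the partner of lsm11 in the same ring, were at 0.369 to 2.88 CPM on day 8 and did not pass (log2 differences of -0.39 and -0.49, adjusted p = 0.494 and 0.576).

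Zebrafish keep many genes in pairs of copies, and whether 2 copies of a splicing factor moved differently was tested on the log2 ratio of the copies with limma. Among all pairs of the matrix named a and b, 158 of 435 (36.3%) had a changed ratio, and among the 7 member pairs so named 4 had one. As 1 of these, snrpa and snrpb, is no pair of copies, a wider set was drawn up after the symbols had been seen. It leaves out pairs whose letter a or b is part of the human symbol. It also takes 2 genes of 1 symbol, and a symbol paired with the same symbol ending in a or b. In it, 465 of 1405 pairs (33.1%) had a changed ratio, and so had 6 of 25 member pairs, which is below the share of all pairs. In 10 member pairs exactly 1 copy was called, in 2 pairs, hnrnpa0 and khdrbs1, both copies were lower, and in 13 no copy was called. The same counts were not made over all pairs, and 13.3% of all genes were called lower and 12.0% higher. A call of only 1 copy therefore does not show that the copies moved differently, which only the test of the ratio addresses.

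The clearest change of a ratio was that of the quaking copies. The log2 ratio of ENSDARG00000002026 to ENSDARG00000010018 was 1.14, 1.04, 0.72 and 1.05 on day 8 and -0.43, -0.78 and -0.59 on day 14. The sign of the ratio turned in every library, and the difference was -1.59 (SE 0.17, adjusted p = 6.06e-05, adjusted over 1405 pairs). All 7 values of both copies are whole numbers, so no read had been divided between them.

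The ratio of srsf2a to srsf2b fell by 0.85 on the log2 scale (SE 0.19, adjusted p = 0.00416), from 2.05 to 2.60 on day 8 to 1.24 to 1.59 on day 14, and that of rbm14a to rbm14b fell by 0.89 (SE 0.16, adjusted p = 0.00148). In both pairs the groups did not overlap and the change passed without each library. Changes of the hnrnpu copies (-0.64, adjusted p = 0.0148), of srsf10a to srsf10b (1.02, adjusted p = 0.0184) and of the ptbp2 copies (0.49, adjusted p = 0.0243) also passed, but each was lost when 1 of 2 or 3 libraries was left out. In hnrnpu, ENSDARG00000004735 fell while ENSDARG00000015206 had 48.1 to 62.9 CPM on day 8 and 53.2 to 57.1 CPM on day 14 (log2 difference -0.03, adjusted p = 0.893). For rbm14, srsf2b and hnrnpu (ENSDARG00000015206), no value is whole, so the split of reads between genes adds error that was not measured.

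**Figure D5:**
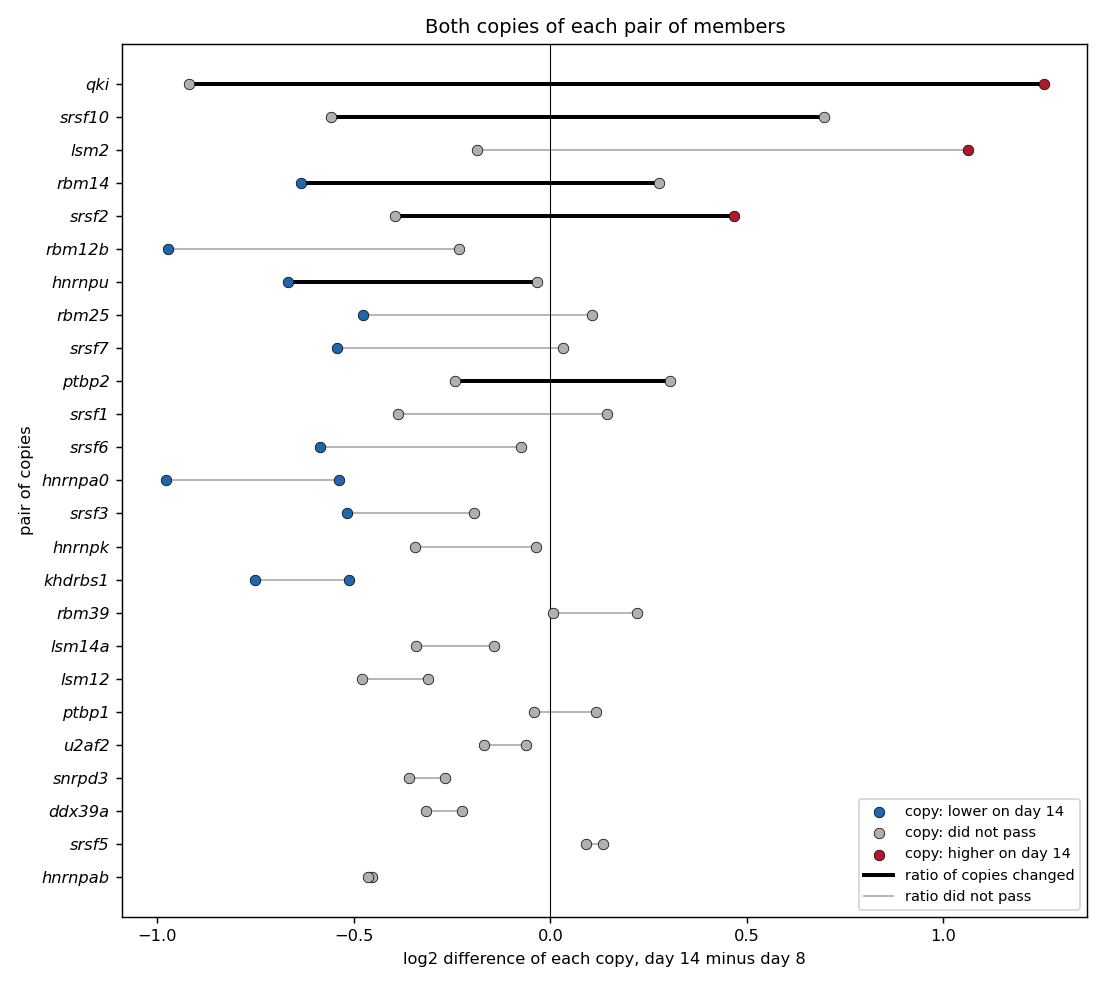
Log2 difference (day 14 minus day 8, horizontal axis) of both copies of the 25 member pairs, sorted by the gap between the copies, with blue points for copies called lower, red points for copies called higher, and thick black lines for the 6 pairs whose ratio changed by limma. The qki copies lie farthest apart, at -0.92 and 1.26, and the lsm2 copies at -0.19 and 1.06 are among the wide gaps whose ratio did not pass. On log2(CPM + 1), the lsm2 ratio changed by -0.77 (limma adjusted p = 0.0860, and 0.0466 with the replicate block).

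Spliceosome genes whose names start otherwise were also called lower more often than higher. Of 63 further spliceosome components, 13 (20.6%, against 13.3% of all genes) were lower, 1 was higher and the median was -0.19. The lowest were usp39, a tri-snRNP protein, at 32.6 to 41.2 CPM on day 8 and 14.3 to 20.4 CPM on day 14 (log2 difference -1.02, SE 0.17, adjusted p = 0.00126), and the peptidyl-prolyl isomerase gene ppil1 (-0.94, adjusted p = 0.00877), while prcc was higher (0.61, adjusted p = 0.0216). With 1 library left out, 4 to 15 of the 63 were lower, and without replicate 2 of day 14 the share was 6.35%, below the 8.18% of all genes. Of 16 genes for the assembly of snRNPs, 7 (43.8%) were lower, and 5 to 8 with 1 library left out, with a median of -0.39. edgeR, DESeq2, limma and limma-voom called 0 of them higher, and 0 had an unadjusted p below 0.05 in that direction. Among them were gemin5, which recognises snRNA for the SMN complex, at 25.2 to 37.4 CPM on day 8 and 10.4 to 13.3 CPM on day 14 (log2 difference -1.43, SE 0.19, adjusted p = 0.000362), and coil, which codes for coilin of Cajal bodies (-1.22, SE 0.16, adjusted p = 0.000353). The median of these assembly genes was below zero within each of replicates 1, 2 and 4 (-0.26, -0.45 and -0.53), while that of the Sm and U snRNP genes was at zero within replicate 1.

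The 9 genes particular to the minor spliceosome had a median of -0.08 and 0 calls by edgeR, DESeq2, limma and limma-voom, with 0 at an unadjusted p below 0.05. With the replicate block 2 of them were higher, beside 17.7% of all genes. Of 15 genes of the exon junction complex and mRNA export, 5 (33.3%, against 13.3% of all genes) were lower, with a median of -0.30, led by thoc6 (-1.08, adjusted p = 0.0113, with overlapping groups) and alyref (-0.62, adjusted p = 0.0270). Without replicate 4 of day 14, 0 were lower (7.75% of all genes), and without replicate 2 of day 14, 1 was (6.67%, against 8.18% of all genes). edgeR, DESeq2, limma and limma-voom called 0 of these 15 higher, with 0 at an unadjusted p below 0.05. For the 8 genes of nonsense-mediated decay the median was -0.09, and edgeR, DESeq2, limma, limma-voom, the block and an unadjusted p below 0.05 gave 0 calls.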

How the data were processed

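Poly-A RNA of PAC2 cells was sequenced from 4 libraries of day 8 and 3 of day 14. The authors quantified transcripts of Ensembl GRCz11 by pseudo-alignment in Kallisto, summed them to genes, filtered scarcely expressed genes out in edgeR (4.6.2) and deposited estimated counts for 17570 genes, which are not normalized although the table is titled so (totals of 11252559 to 33414743, with 48.0% to 52.3% of the values whole within 1e-06). A value is whole where no read was divided between genes. Among the members, 79 had whole values in all 7 libraries and 46 had no whole value. The latter include the called genes snrpf, sf3a1, sart3, srsf7a, hnrnpdl, hnrnpl, rbm19 and rbm34. The limit given above for lsm2 and hnrnpa0b holds for these genes too. Estimated counts were rounded, as the design had foreseen, and tested with edgeR 4.0.16 in R 4.3.3 (TMM factors of 0.883 to 1.15, estimateDisp, robust glmQLFit, glmQLFTest, growth phase as the only term) with Benjamini-Hochberg adjustment over all genes. The SE is the size of the log2 difference over the square root of F. Precision is limited by the depth and lowest in replicate 1 of day 8. Pairs of copies were tested with limma 3.58.1 (trend, robust) on log2(CPM + 1) at a mean of at least 1 CPM. Scripts were tested on simulated data with planted changes larger than that of any member. That test does not show how well changes of the size reported here are called. Symbols were found for 15073 genes (85.8%), are written in lower case, and carry an identifier where 2 genes share one (14 symbols, 28 members). No sequences were used here.

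The members and lists were chosen with earlier results of these data known. The genes named are, in each group, up to 3 called members in each direction and the member of highest CPM, a set of well-known splicing factors, both copies of pairs with a changed ratio, and up to 2 called genes in each direction of the further lists. Genes named beyond these were chosen after their values were seen.

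The study's methods give each replicate its own passage and starting day, and the labels carry a run number, so equal numbers were taken to pair the samples. The deviations of paired libraries from their group means correlated across genes by 0.324, -0.132 and 0.407 in replicates 1, 2 and 4, and those of other combinations by -0.357 to 0.371. The block was an alternative, as were other scalings (none, median of ratios, upper quartile), minimum levels of 1 and 5 CPM, no robust estimation, the newer form of the fit, DESeq2 1.42.0, limma on log2(CPM + 1), limma-voom, pseudocounts of 0.5 and 5 for pairs, and the omission of each library. Plots were made in Python 3.11.15 with matplotlib 3.10.9.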

Additional observations from a re-analysis of the deposited data

Results flagged for a closer look

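In 4 of 120 results tested, the highest or lowest of the 4 day 8 libraries stood apart from the other 3 by more of the group's range than the 95% limit of Dixon's test allows, a limit that chance passes in about 1 of 20 groups. For lsm11, replicate 3 of day 8 was high at 14.0 CPM, with the other day 8 libraries at 10.5 to 10.97 CPM (gap of 0.836 of the range), and the gene remained called lower without that library. For sf3a1, replicate 4 was low at 62.9 CPM, with the others at 74.4 to 75.2 CPM (gap of 0.939), and for rbfox3, replicate 2 was low at 0.924 CPM, with the others at 1.08 to 1.11 CPM (gap of 0.864). The median of the 13 PRPF and SART genes was -0.10 in replicate 4 of day 8 and 0.02 to 0.04 in the others (gap of 0.876). What sets these libraries apart was not tested.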

How the results depend on the processing

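The number of lower members was 66 without TMM scaling, 63 with the replicate block and 9 to 46 when 1 library was left out, against 38. That of higher members was 1 without TMM scaling, 2 among genes of at least 5 CPM and 2 to 7 with 1 library left out, against 6. Of the higher members, celf2, rbm46 and the called lsm2 and qki genes were below 5 CPM on average, so the fit at that level did not test them. The medians without TMM scaling were -0.48 for all members, -0.34 for SR proteins and -0.62 for hnRNPs, beside a shift of the median of all genes to -0.17. Under the other settings the medians of the members and of the core spliceosome, SR, hnRNP and tissue-type classes moved by less than the spread between replicates. For the members that share only the start of the name, the median ran from -0.62 to -0.42 with 1 library left out, against -0.49. The replicate block ended 0 calls of members. Of 55 called genes named, 0 changed direction under any setting; in 1682 fits of named genes, 118 lost and 45 gained the threshold and 46 turned the sign, all of genes that had not passed. Without TMM scaling these were ptbp1 (ENSDARG00000031907) at -0.077, qkia at -0.13, rbfox1 at -0.16, rbm39 (ENSDARG00000011613) at -0.17, sf3b1 at -0.16 and srsf1 (ENSDARG00000017843) at -0.044. With the block they were lsm6 at 0.056, qkia at -0.034, rbfox1 at -0.047, sf3b1 at -0.020 and snrpd2 at 0.17. With upper-quartile factors and with genes of at least 5 CPM they were hnrnpk (ENSDARG00000018914) at 0.030 and 0.0098, hnrnpu (ENSDARG00000015206) at 0.032 and 0.012, ptbp1 (ENSDARG00000019362) at 0.023 and 0.0034, and snrpd2 at 0.027 and 0.0026. With limma and limma-voom rbm39 was at -0.0064 and -0.0073 and snrpd2 at 0.023 and 0.041. With 1 library left out the ranges were -0.11 to 0.056 for hnrnpk, -0.10 to 0.021 for hnrnpu, -0.14 to 0.033 for ptbp1, -0.042 to 0.21 for qkia, -0.083 to 0.15 for rbfox1, -0.080 to 0.15 for rbm39, -0.039 to 0.075 for sf3b1 and -0.23 to 0.14 for snrpd2. The cause of these changes was not tested. The 4 changed pairs named a and b became 5 with a pseudocount of 5 and 3 to 5 with 1 library left out, and the 6 of the wider set became 9 with the block and 4 to 9 with 1 library left out. Genes near 1 CPM, such as lsm10 and rbm44, are limited by depth, and 3 members were below 1 CPM on average.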

Other observations

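Genes that act on SR proteins and relatives of the hnRNPs are not taken in by the rule for members. Of 21 SR-related proteins and kinases of SR proteins, 2 were lower and 2 higher (9.52% each, below the 13.3% and 12.0% of all genes), with a median log2 difference of -0.26. The kinase genes srpk1b and dyrk1b fell by 0.73 and 0.77 on the log2 scale (adjusted p = 0.00980 and 0.00671). In contrast, clk2 (ENSDARG00000062954), which codes for a kinase that frees SR proteins from nuclear speckles, had 14.8, 15.3, 15.6 and 13.8 CPM on day 8 and 23.4, 25.7 and 23.3 CPM on day 14 (log2 difference 0.70, SE 0.14, adjusted p = 0.00398). Its day 14 libraries were all above day 8 by more than the spread within either group, and so were those of nktr, a cyclophilin gene with an arginine- and serine-rich tail (log2 difference 0.91, adjusted p = 0.00194).

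Of 35 further hnRNP-like genes, 11 (31.4%, against 13.3% of all genes) were lower and 3 higher, with a median of -0.21. Leaving out replicate 4 of day 14 gave 1 lower gene (2.86%, against 7.75% of all genes), and leaving out replicate 2 of either day gave 2 (5.71%). Those shares were below the 9.75% of all genes without replicate 2 of day 8 and the 8.18% without replicate 2 of day 14. The lowest were khsrp (-0.68, adjusted p = 0.0272, with overlapping groups) and ilf3a (-0.64, adjusted p = 0.0129), whose products bind AU-rich or double-stranded RNA. The hnRNP-related gene raly rose from 2.70, 2.33, 3.53 and 2.98 CPM to 5.61, 8.86 and 6.49 CPM (log2 difference 1.27, SE 0.23, adjusted p = 0.00226). The musashi genes of the symbol msi2 were called in opposite directions: ENSDARG00000033901 had 32.8 to 44.7 CPM on day 8 and 64.7 to 70.6 CPM on day 14 (log2 difference 0.77, adjusted p = 0.00273), and ENSDARG00000032614 fell from 18.2 to 21.4 CPM to 12.4 to 15.5 CPM (log2 difference -0.56, adjusted p = 0.0213).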
